A study of Mus musculus with 8 samples.

Results

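The 10 genes described here encode parts of the class I and class II antigen presentation pathways. They are the rows of the gene count table named H2-K1, H2-D1, B2m, Tap1, Tap2, Tapbp, H2-Aa, H2-Ab1, Cd74 and Ciita, 10 of 25078 genes. They were measured by RNA sequencing in the livers of 8 male C57/BL6 mice, 5 wild type and 3 that the genotype label calls Midn hemizygotes and the titles call Het (het-labelled below). All 8 had eaten the high-fat-fructose-cholesterol diet during 25 weeks, so every comparison is between livers on that diet. The design text gives the question as the part midnolin plays in fatty liver disease. By that text the heterozygous animals come from a whole-body knockout, used because most homozygous knockouts died as embryos, and the labels give neither the region that was removed nor which animals were littermates.

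MHC class I molecules show peptides from inside the cell to cytotoxic T cells. Each has a polymorphic heavy chain, such as the products of H2-K1 and H2-D1, bound to beta-2 microglobulin (B2m). The transporter made by Tap1 and Tap2 carries peptides into the endoplasmic reticulum, where tapasin (Tapbp) holds empty class I molecules beside it. MHC class II molecules pair an alpha and a beta chain, here from H2-Aa and H2-Ab1, and show peptides from ingested material to helper T cells. The invariant chain Cd74 blocks their groove until they reach the endosome, and Ciita is the coactivator that switches the class II genes on. Nearly all nucleated cells make class I, hepatocytes included, whereas class II in liver belongs mainly to dendritic cells, macrophages and B cells. Interferon gamma is a classical inducer of both pathways.

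Of the 10 members, 7 lie on chromosome 17, which holds the mouse MHC, and B2m, Cd74 and Ciita lie on chromosomes 2, 18 and 16. RefSeq promoter windows on GRCm38.p6, which is the mm10 build of the files, were matched for 6 members (H2-K1, H2-D1, B2m, Tap1, Tapbp and H2-Aa). The windows held none for Tap2, H2-Ab1 and Ciita, and none was used for Cd74, so these are described without one. The 180 bases before the annotated start are printed for the 3 class I chains, whose levels differed in how they followed genotype, and for H2-Aa, the class II chain with the lowest het-to-wild-type ratio. Sequences run 5′ to 3′ on the strand of the gene. Capitals mark exact matches, on either strand, to a kappa B motif (GGGNNTTCC), an interferon response element core (GAAANNGAA), the CRE core TGACG and the CCAAT box, which reads ATTGG on the other strand. The H2-K1 stretch is chr17:34000348-34000527 (minus strand), that of H2-D1 is chr17:35262914-35263093 (plus), that of B2m is chr2:122147507-122147686 (plus) and that of H2-Aa is chr17:34287824-34288003 (minus).
H2-K1: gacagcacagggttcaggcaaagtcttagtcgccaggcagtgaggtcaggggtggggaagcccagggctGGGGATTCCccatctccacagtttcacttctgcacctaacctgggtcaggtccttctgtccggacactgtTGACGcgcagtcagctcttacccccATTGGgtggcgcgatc
H2-D1: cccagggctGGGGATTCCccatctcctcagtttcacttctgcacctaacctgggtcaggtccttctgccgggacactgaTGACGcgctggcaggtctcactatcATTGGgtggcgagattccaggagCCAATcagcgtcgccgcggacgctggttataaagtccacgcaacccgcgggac
B2m: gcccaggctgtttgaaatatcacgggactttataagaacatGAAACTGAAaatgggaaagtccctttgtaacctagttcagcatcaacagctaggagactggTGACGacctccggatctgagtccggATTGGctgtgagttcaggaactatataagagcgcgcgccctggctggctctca
H2-Aa: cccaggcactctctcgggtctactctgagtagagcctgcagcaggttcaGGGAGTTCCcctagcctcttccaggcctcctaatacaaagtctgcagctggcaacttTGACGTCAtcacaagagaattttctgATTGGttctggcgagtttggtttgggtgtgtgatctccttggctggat

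The H2-K1 and H2-D1 windows aligned over 228 columns with 90.4% identity, and both carry the kappa B match, the CRE core and the CCAAT box in the same order. In bases from the annotated start, these are at -111, -41 and -16 in H2-K1, with a further CCAAT box at 8. In H2-D1 they are at -171, -101 and -76, with a further CCAAT box at -53. In B2m an interferon response element core is at -139, with no kappa B match, ahead of a CRE core at -78 and a CCAAT box at -53. A further CRE core of B2m is at 44, which like the H2-K1 box at 8 is past the printed stretch. In H2-Aa the kappa B match is at -131, a palindrome with the CRE core on both strands is at -74 and -71, and the CCAAT box is at -48. Tap1 had a CRE core at -86 and a CCAAT box at -222, and Tapbp had CCAAT boxes at -248 and -165. The STAT site TTCNNNGAA was also searched for and was in none of the 6 windows. Over all 32851 RefSeq windows of 300 bases, 5.82% held the kappa B motif, 8.56% the interferon response element core, 20.8% the CRE core, 37.4% the CCAAT box and 8.3% the STAT site. The matches describe the letters only. Exact strings leave out close variants: the H2-K1 and H2-D1 stretches both hold tttcacttc, and that of B2m holds gggaaagtccc, all unmarked. The absence of a match is thus the absence of that string alone.

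Total counts ran from 17508221 to 24916239 per library, and the members together took 0.251% to 0.364% of them. Midn itself ran from 29.3 to 71.5 CPM, which scales each library to the same total, in wild type and from 39.1 to 60.4 CPM in het-labelled livers, with a log2 fold change of 0.00 (SE 0.304, edgeR adjusted p = 0.994), so it does not separate the labels. Libraries differed in ways that genotype does not explain. The share of counts from Rpph1, a small non-coding RNA, was 0.331% and 0.304% in wild-type libraries 1 and 3, and 0.899%, 0.673% and 1.06% in wild-type libraries 2, 4 and 5. It was 0.229%, 0.399% and 0.288% in the het-labelled libraries, so results are also given against each of those wild-type sets. Het-labelled library 2 stood apart from the other two in macrophage and leukocyte markers, given beside the class II genes. Levels below are CPM after TMM scaling, an edgeR correction for library composition, and differences are log2 fold changes, het-labelled minus wild type.

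Across the whole table, 0 of 14438 tested genes passed an adjusted p of 0.05 in edgeR's quasi-likelihood test (0%), and 0 of the 10 members did. All 10 members passed the filter on low counts. At an unadjusted p under 0.05, 1 member was higher (B2m) where 10.3% of tested genes were, and 0 were lower where 5.43% were. DESeq2 called 176 genes and none of the members. The median log2 fold change of the members was 0.06, beside 0.00 over all genes tested. Within that median the 3 roles differed in sign: it was 0.20 for the class I chains, 0.19 for the peptide loading genes and -0.53 for the class II genes. Where nothing in the labels shows separate litters or extractions, p-values measure only the spread between these livers.

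**Figure D1:**
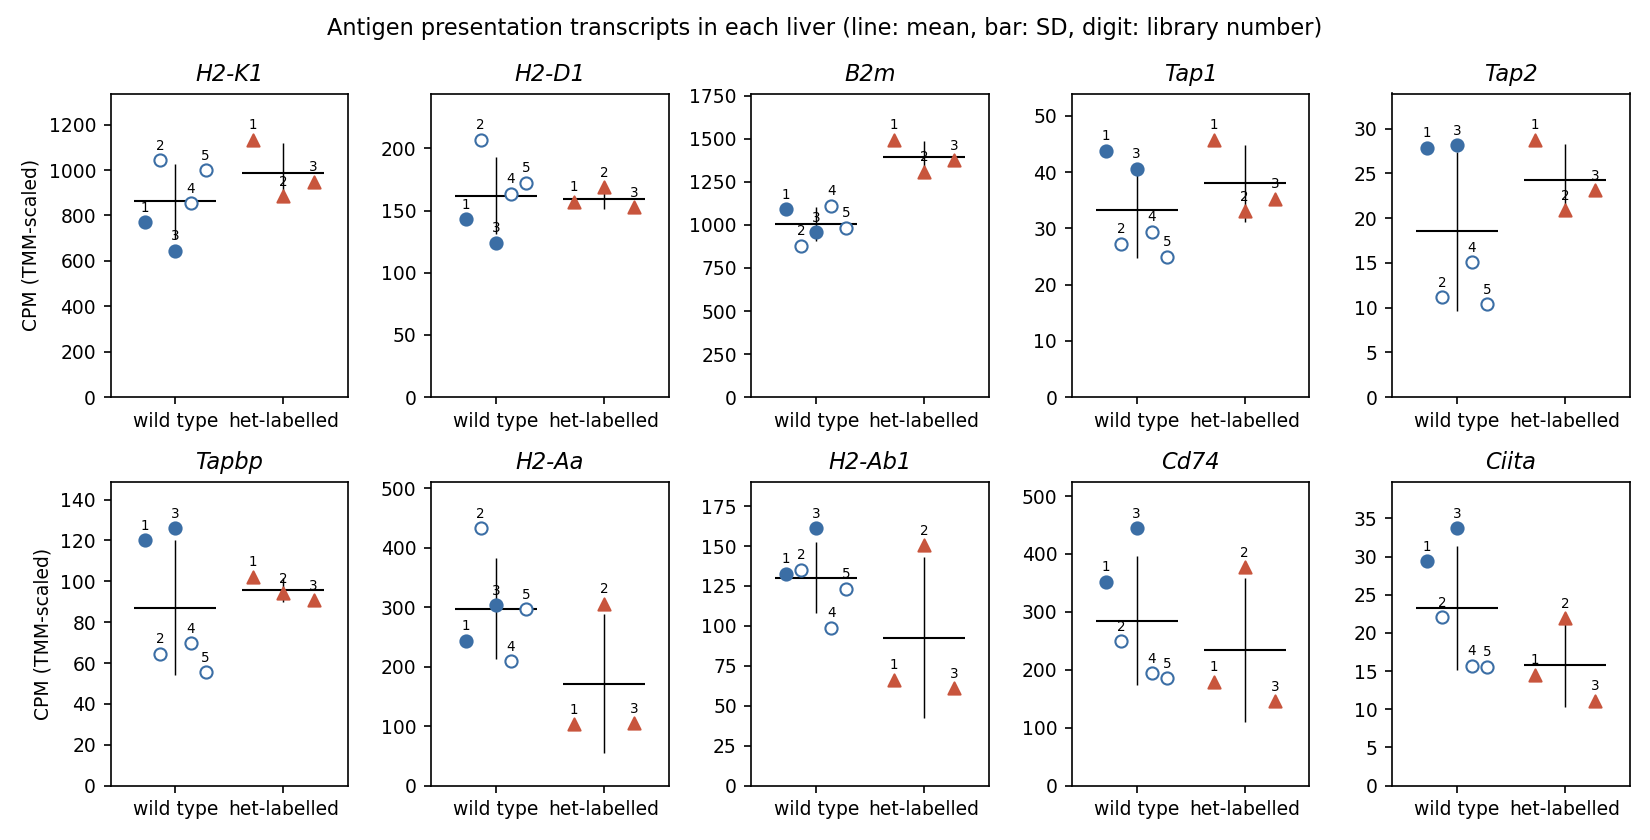
CPM of the 10 members in every liver, each panel on its own axis from 0. Filled circles are wild-type libraries 1 and 3 (low Rpph1 share), open circles wild-type libraries 2, 4 and 5 and triangles het-labelled libraries; lines are means and bars SD (n = 5 and 3). B2m is the one panel without overlap, and het-labelled libraries 1 and 3 are the lowest points in all 4 class II panels.

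B2m, the light chain shared by all class I molecules, was the one member whose groups did not overlap. It stood at 1092, 880.3, 958.3, 1111 and 983.8 CPM in wild-type libraries 1 to 5, and at 1494, 1310 and 1376 CPM in the het-labelled libraries. Each het-labelled liver was above each wild-type liver, as was true of 7.54% of all genes tested; the reverse order, seen in 2.32% of genes, held for no member. The mean was 1005 ± 96 (SD, n = 5) in wild type and 1393 ± 93 (SD, n = 3) in het-labelled livers, a 1.39-fold ratio. The log2 fold change was 0.47 (SE 0.172, 95% interval 0.083 to 0.859, adjusted p = 0.273 by edgeR). A two-sided exact permutation test of the means gave p = 0.0357, the smallest that 56 assignments of 3 among 8 livers allow. The difference was 0.38 against wild-type libraries 1 and 3 and 0.44 against libraries 2, 4 and 5, with adjusted p = 0.219 and 0.101 by edgeR. Without wild-type library 2, het-labelled library 1 or het-labelled library 3, the unadjusted p was above 0.05. It was also above 0.05 in both limma fits on log2 RPKM, where the difference was 0.44 (limma adjusted p = 0.461 and 0.441). Dividing by library size alone, which moves the median of all genes to -0.18, put B2m at 0.28 (edgeR adjusted p = 0.499), or 0.46 relative to that median.

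H2-K1, the K heavy chain, did not separate the genotypes. Its levels were 770.3, 1044, 644.9, 853.6 and 1000 CPM in wild type and 1133, 885.8 and 947.9 CPM in het-labelled livers. Only het-labelled library 1 was above the wild-type range, and without it the log2 fold change was 0.09. The log2 fold change was 0.20 (SE 0.213, 95% interval -0.28 to 0.68, adjusted p = 0.626 by edgeR), and 0.06 without wild-type library 3. H2-D1, the D heavy chain, stood at 143.2, 206.8, 124.2, 163.4 and 172.4 CPM in wild type and at 157.1, 168.6 and 152.6 CPM in het-labelled livers. All 3 het-labelled values lay inside the wild-type range, and the log2 fold change was -0.02 (SE 0.182, 95% interval -0.43 to 0.39, adjusted p = 0.953 by edgeR). Wild-type libraries 1 and 3 were below libraries 2, 4 and 5 for both heavy chains, a split of the same direction as in 31.1% of all genes tested.

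The heavy-chain ratio H2-D1/H2-K1, taken per exon length within each library and so free of scaling between libraries, was 0.178, 0.19, 0.184, 0.183 and 0.165 in wild type. It was 0.133, 0.182 and 0.154 in het-labelled livers. Het-labelled libraries 1 and 3 were below the wild-type range and library 2 inside it. The mean log2 ratio was -2.48 ± 0.077 in wild type and -2.69 ± 0.229 in het-labelled livers (exact permutation p = 0.107, adjusted p = 0.238 over 5 ratios). The difference of -0.21 was -0.10 without het-labelled library 1 and -0.33 without library 2. Near-identical copies limit this comparison: 14.3% of the 50-base windows of the H2-D1 transcript and 8.79% of those of H2-K1 occur in another gene as well, mostly other class I genes. At 100 bases the shares were 4.64% and 0, and how the counting treated such reads is not stated in the labels or file headers. For B2m and the 4 class II members no 50-base window was shared.

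The 3 peptide loading genes varied together, and along a split among wild-type livers more than with genotype. Tap1, an arm of the peptide transporter, stood at 43.79, 27.25, 40.6, 29.38 and 24.93 CPM in wild type and 45.72, 32.99 and 35.26 CPM in het-labelled livers. Tap2, the other arm, stood at 27.89, 11.18, 28.17, 15.05 and 10.36 CPM in wild type and 28.76, 20.88 and 23.16 CPM in het-labelled livers. Tapbp stood at 120, 64.55, 125.9, 69.64 and 55.45 CPM in wild type and 102.3, 94.22 and 90.68 CPM in het-labelled livers. For all 3 genes, wild-type libraries 2, 4 and 5 were the 3 lowest of the 8 livers. The share of all genes tested with that order was not counted, so it is not shown to be particular to these genes. Wild-type libraries 1 and 3 were above them in each gene, as in 31.8% of all genes tested. The 8 livers thus fell into a set of 3 and a set of 5 on these genes, too few within either for a correlation between them.

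Against all 5 wild-type livers the loading genes did not pass the test. The log2 fold changes were 0.19 for Tap1 (SE 0.221, adjusted p = 0.643), 0.39 for Tap2 (SE 0.358, adjusted p = 0.578) and 0.14 for Tapbp (SE 0.286, adjusted p = 0.807), all by edgeR. With 1 library left out, Tap1 ran from 0.05 (without het-labelled library 1) to 0.31 (without wild-type library 1), and Tap2 from 0.20 (without wild-type library 2) to 0.57 (without wild-type library 1). Tap1 was also at 0.08 without wild-type library 2 and 0.11 without library 5, while Tap2 was at 0.24 without library 5 and, omitting het-labelled library 1, at 0.25. Tapbp was at 0.00 without wild-type library 2 and at 0.27 without library 1. The sign turned with the choice of wild-type livers. Against libraries 2, 4 and 5, Tap2 was higher by 0.94 (SE 0.185, adjusted p = 0.0283 by edgeR) and Tapbp by 0.55 (SE 0.125, adjusted p = 0.0295 by edgeR), and Tap1 stood at 0.43 (adjusted p = 0.0745 by edgeR). That is 2 of 10 members called, where 18.9% of all genes tested were called in the same comparison. Against libraries 1 and 3 the values were -0.27 for Tap2, -0.21 for Tap1 and -0.42 for Tapbp, with edgeR adjusted p from 0.0828 to 0.366, and 0 of 10 members were called where 0.143% of genes were. Rpph1 share moves with this split, and its part in it was not tested. Dividing by library size alone also turned Tap1 to -0.04 and Tapbp to -0.11, which are 0.14 and 0.07 relative to the shifted median of all genes.

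The Tap2/Tap1 ratio per exon length was 0.745, 0.75 and 0.778 in het-labelled livers. In wild type it was 0.755 and 0.822 in libraries 1 and 3, and 0.486, 0.607 and 0.492 in libraries 2, 4 and 5. The genotypes differed by 0.29 in log2 ratio (exact permutation p = 0.321, adjusted p = 0.321 over 5 ratios). The exons of Tap1 share 212 bases with those of Psmb9 on the other strand, and those of Tapbp share 149 bases with Zbtb22 on the same strand. Among the class II members, Ciita shares 329 bases with Dexi on the other strand and Cd74 shares 12 with Mir5107 on the same strand. On the other strand, Tap2 shares 533 bases with Gm15821 and 165 with Gm20496, and Tapbp shares 904 with Gm19412, none of them counted genes. The labels and file headers do not state whether counting used strand, so reads in those stretches cannot be told apart.

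**Figure D2:**
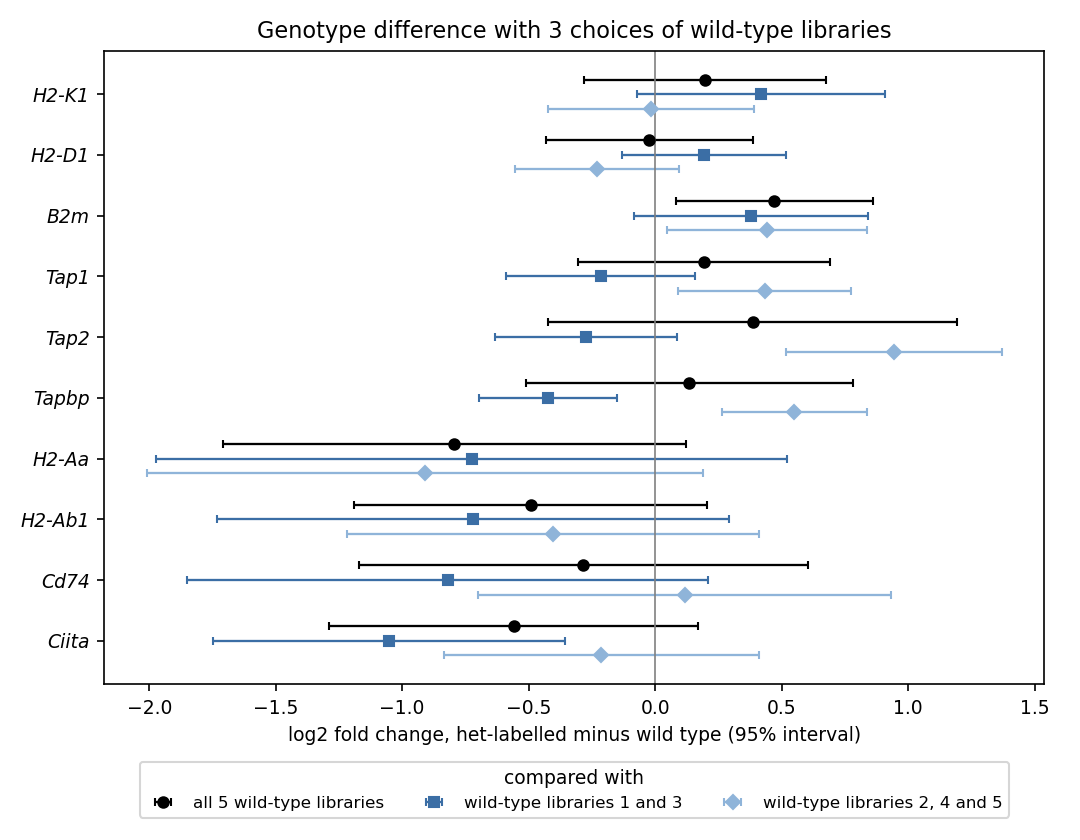
Log2 fold change of each member (points) with its 95% interval (bars), from edgeR fits against all 5 wild-type livers, against wild-type libraries 1 and 3, and against wild-type libraries 2, 4 and 5. Tap1, Tap2 and Tapbp lie on opposite sides of 0 in the last 2 fits, while B2m lies between 0.38 and 0.47 in all 3.

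The 4 class II members shared a pattern over the het-labelled livers. Libraries 1 and 3 were below every wild-type liver for each of them, and library 2 was inside the wild-type range for each. The share of all genes tested with this order was not counted, so the order is not shown to be particular to these genes. H2-Aa, the alpha chain, stood at 243.8, 432.8, 303.2, 209.8 and 297.2 CPM in wild type and 103.7, 306 and 104.6 CPM in het-labelled livers. H2-Ab1, its beta chain partner, stood at 132.7, 135.2, 161.1, 98.96 and 123.4 CPM in wild type and 66.32, 150.7 and 60.85 CPM in het-labelled livers. Among them, library 2 was thus more than the other two combined for both chains. Cd74, the invariant chain, stood at 351.9, 249.3, 444.3, 194.2 and 185.6 CPM in wild type and 179.4, 376.7 and 146.2 CPM in het-labelled livers. Ciita, the class II coactivator, stood at 29.35, 22.05, 33.69, 15.71 and 15.59 CPM in wild type and 14.52, 21.9 and 11.1 CPM in het-labelled livers. For Cd74 and Ciita, het-labelled library 1 was just below wild-type library 5, the lowest wild-type value.

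None of these differences passed the test. H2-Aa had the largest, at -0.79 (SE 0.406, 95% interval -1.71 to 0.12, adjusted p = 0.357 by edgeR), with means of 297 ± 85 (SD, n = 5) and 171 ± 117 (SD, n = 3) CPM. H2-Ab1 was at -0.49 (SE 0.309, adjusted p = 0.433), Cd74 at -0.28 (SE 0.393, adjusted p = 0.704) and Ciita at -0.56 (SE 0.323, adjusted p = 0.404), all by edgeR. The exact permutation p of the means was 0.179 for H2-Aa, H2-Ab1 and Ciita and 0.5 for Cd74. Each class II value moved by over 1.5 times when a single library was left out. Without het-labelled library 2 the log2 fold changes were -1.51 for H2-Aa, -1.03 for H2-Ab1, -0.80 for Cd74 and -0.86 for Ciita. The edgeR adjusted p was then 0.0755 for both H2-Aa and H2-Ab1, so no class II member passed there either. Without het-labelled library 1 the values were -0.53 for H2-Aa, -0.30 for H2-Ab1, -0.12 for Cd74 and -0.49 for Ciita, and without library 3 they were -0.53, -0.26, -0.03 and -0.35. Without wild-type library 3, Cd74 was at -0.10. The unadjusted p of H2-Aa was under 0.05 in 4 of 10 alternative fits (DESeq2, limma-voom and both limma fits on RPKM), with adjusted p from 0.252 to 0.309. The choice of wild-type livers moved Cd74 from -0.82 against libraries 1 and 3 to 0.12 against libraries 2, 4 and 5, and Ciita from -1.05 to -0.21. Both genes were higher in wild-type libraries 1 and 3 than in the other 3 wild-type livers.

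**Figure D3:**
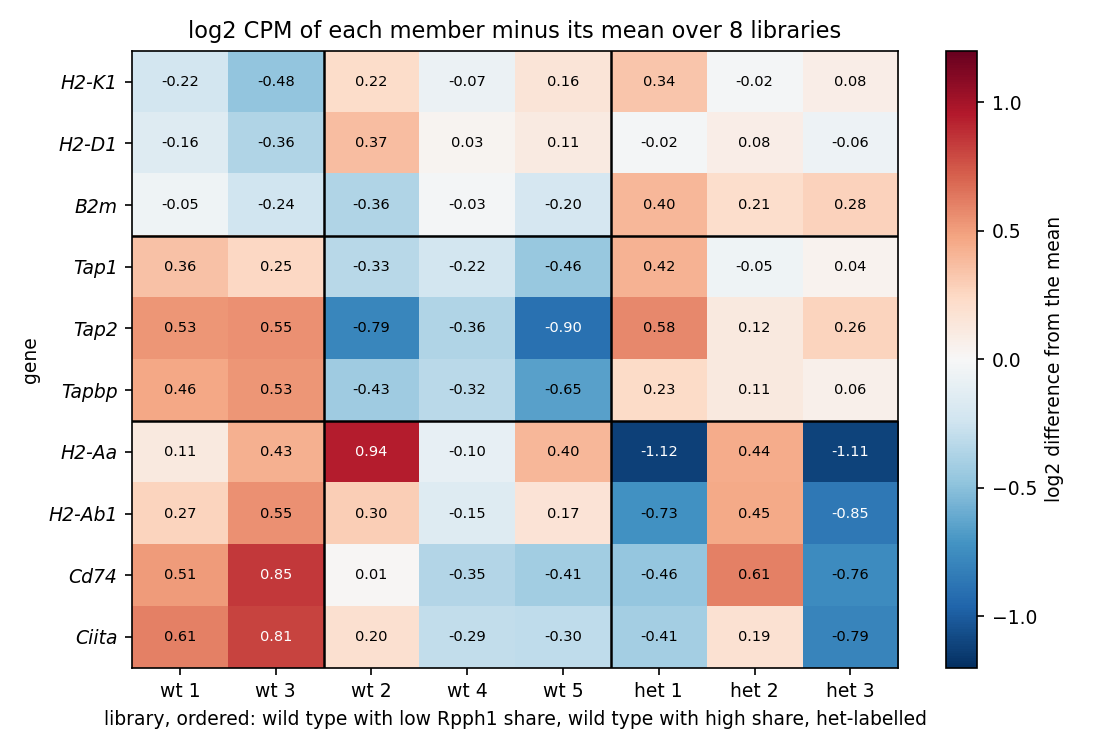
Log2 CPM of each member (rows, grouped as class I chains, peptide loading and class II) minus its mean over the 8 livers (columns: wild type with low Rpph1 share, wild type with high share, het-labelled). The loading genes are lowest in wild-type libraries 2, 4 and 5, and H2-Aa is at -1.12 and -1.11 in het-labelled libraries 1 and 3.

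Markers of other cell types moved with the class II genes. The summed level of 9 markers of recruited and lipid-associated macrophages was 1130 to 2057 CPM in wild type and 386.4, 1541 and 423.9 CPM in het-labelled livers. That of 5 pan-leukocyte markers was 290.8 to 539.4 CPM in wild type and 152.7, 328.8 and 173.5 CPM in het-labelled livers. For 9 dendritic cell markers it was 48.22 to 81.13 CPM and 45.03, 69.74 and 38.64 CPM. In all 3 lists het-labelled libraries 1 and 3 were below the wild-type range and library 2 inside it, as for the class II members. Itgax was the largest part of the dendritic cell sum in all 8 livers, at 18.6, 40.1 and 13.7 CPM in het-labelled livers. Zbtb46 was the only dendritic cell marker with a positive log2 fold change, at 0.17 (adjusted p = 0.698 by edgeR). Marker by marker, the order of the class II members held for 7 of 9 recruited macrophage markers, 3 of 5 leukocyte markers and 2 of 9 dendritic cell markers. Its share over all genes tested was not counted, so these counts have no background beside them. The 9 Kupffer cell markers, for the resident macrophages of the liver, summed to 597.3 to 2016 CPM in wild type and to 601.1, 774 and 756.5 CPM in het-labelled livers, inside the wild-type range. Cd5l was the largest part of that sum in all 8 livers, and 3 of the 9 had the class II order: C1qa, C1qb and C1qc, which encode complement C1q. C1qa stood at 87.8 to 149 CPM in wild type and at 58.5, 91.4 and 58.7 CPM in het-labelled livers. The 5 bile duct markers summed to 404.4 to 868.9 CPM in wild type and to 145.6, 735.2 and 157.2 CPM, mostly from Spp1, which is also in the recruited macrophage list. Without Spp1 the other 4 bile duct markers summed to 12.4 to 100.1 CPM in wild type and to 15.2, 45.6 and 16.0 CPM in het-labelled livers, all inside the wild-type range. Without Spp1 the recruited macrophage markers summed to 603 to 1279 CPM and to 256, 852 and 283 CPM, in the same order as with it.

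The B cell list could be read for 6 of 7 markers, summing to 6.041 to 11.39 CPM in wild type. In het-labelled livers the sums were 3.18, 5.865 and 5.956 CPM, below each wild-type liver. The last lies close to the lowest wild-type sum, and the markers had only 6 to 79 counts each per library. The 9 T and NK cell markers summed to 6.81 to 23.2 CPM and to 8.618, 12.75 and 7.148 CPM, inside the wild-type range. Singly, 4 of the 9 had the class II order, again with no share over all genes tested counted beside it. The 8 hepatocyte markers summed to 36580 to 45370 CPM in wild type and to 71310, 40250 and 61310 CPM in het-labelled livers. The samples thus carry the markers of the labelled tissue, and the sums of het-labelled libraries 1 and 3 stand apart here too. Alb was the largest part of that sum in all 8 livers. Cps1 was the only one of the 8 with a negative log2 fold change, at -0.33 (adjusted p = 0.524 by edgeR). For Cps1, Tat and Pck1, het-labelled library 3 was inside the wild-type range. The 7 sinusoidal endothelial markers ran from 372.4 to 495.6 CPM and stood at 569.7, 414.7 and 561.1 CPM. The 6 stellate cell markers ran from 841.9 to 1054 CPM and stood at 805.1, 1165 and 633.5 CPM. No marker in these lists was without a count. At an unadjusted edgeR p under 0.05, counts of markers lower and higher were 2 and 0 of 9 for recruited macrophages, 2 and 0 of 5 for leukocytes, 1 and 0 of 9 for dendritic cells, and 3 and 0 of 9 for Kupffer cells. They were 1 and 0 of 5 tested for B cells, 2 and 0 of 9 for T and NK cells and 0 and 0 of 5 for bile duct. For endothelium they were 0 and 1 of 7, for stellate cells 0 and 1 of 6 and for hepatocytes 0 and 3 of 8. Over all genes tested, 5.43% were lower and 10.3% higher at that threshold. In whole liver, fewer cells of a type and less RNA per cell cannot be told apart, and the part of these markers in the class II values was not tested.

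**Figure D4:**
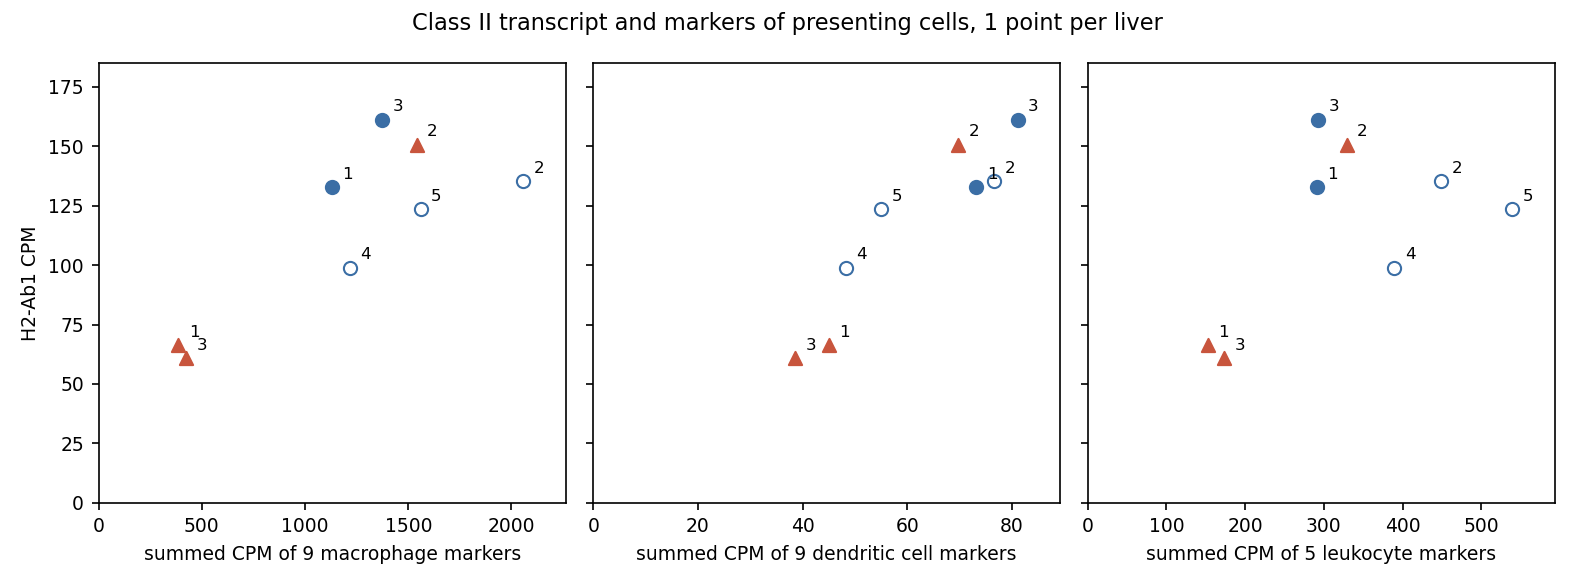
H2-Ab1 in CPM (vertical) against the summed CPM of macrophage, dendritic cell and leukocyte markers (horizontal), 1 point per liver; circles are wild type (filled, libraries 1 and 3; open, libraries 2, 4 and 5), triangles het-labelled, and digits the library number. Het-labelled libraries 1 and 3 sit at the lower left of each panel, at 66.3 and 60.9 CPM of H2-Ab1, and library 2 sits among the wild-type livers at 151 CPM.

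The class II genes were not in a fixed proportion to each other. H2-Aa/H2-Ab1 per exon length was 1.94, 3.39, 1.99, 2.24 and 2.55 in wild type and 1.65, 2.15 and 1.82 in het-labelled livers, a log2 difference of -0.35 (exact permutation p = 0.143, adjusted p = 0.238 over 5 ratios) that was -0.22 without wild-type library 2. Cd74/H2-Ab1 was 2.24, 1.56, 2.33, 1.65 and 1.27 in wild type and 2.28, 2.11 and 2.03 in het-labelled livers, a log2 difference of 0.28 (exact permutation p = 0.321, adjusted p = 0.321) that was 0.16 without wild-type library 5. In both ratios the 3 het-labelled livers were closer together than the wild-type livers, and the groups overlapped. Class II against class I, as H2-Ab1/H2-K1, was 0.24, 0.18, 0.348, 0.161 and 0.172 in wild type. It was 0.0814, 0.237 and 0.0893 in het-labelled livers, with a log2 difference of -0.81 (exact permutation p = 0.143, adjusted p = 0.238). Het-labelled libraries 1 and 3 were below every wild-type liver on that ratio as well, and the difference was -0.54 without het-labelled library 1 and -1.31 without library 2.

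Correlations of log2 CPM over the 8 livers were computed for all 45 pairs of members, and r passed an adjusted permutation p of 0.05 in 6. Of these, 3 were the pairs among Tap1, Tap2 and Tapbp, for which no pooled r is given because the livers fell into the sets described above. The other 3 were among H2-Ab1, Cd74 and Ciita. Ciita and Cd74 had r = 0.949 (rho 0.929, exact permutation p = 0.000794 and 0.00223, adjusted 0.00893 and 0.0335 over the pairs). Without the 2 livers farthest from the Cd74 median, r was 0.994. H2-Ab1 with Cd74 had r = 0.845 (rho 0.952, exact permutation p = 0.000397 and 0.00114, adjusted 0.00818 and 0.0257), and 0.843 without 2 livers. H2-Ab1 with Ciita had r = 0.849 (rho 0.881, exact permutation p = 0.00208 and 0.00724, adjusted 0.0156 and 0.0543), and 0.767 without 2. H2-Aa with H2-Ab1 rested on the 2 livers at the edge: r = 0.928 (rho 0.857, exact permutation p = 0.00794 and 0.0107, adjusted 0.051 and 0.0603) became 0.556 without them. The 12 pairs of a class I chain with a class II member ran from -0.838 to 0.315, with a median of -0.466, and none passed an adjusted p of 0.05 by the permutation test. The lowest was B2m with H2-Aa, at r = -0.838 (rho -0.762, exact permutation p = 0.0124 and 0.0368, adjusted 0.0585 and 0.15) and -0.638 without 2 livers. B2m did not overlap between the genotypes, so this pooled r cannot be told apart from a difference between them. No correlation within a genotype was computed. H2-K1 with H2-D1 had r = 0.744 (rho 0.643, exact permutation p = 0.0357 and 0.0962, adjusted 0.146 and 0.24) and 0.792 without 2. The sets with low and high Rpph1 share hold 5 and 3 livers, too few for a correlation within either.

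Of 13336 genes with a mean of at least 1 CPM, those most like H2-K1 over the 8 livers were Cul3 (r = 0.984), Wdyhv1 (0.96), Ndufa11 (0.953), Serhl (0.951) and Ahctf1 (0.95). Those most like H2-Aa were Miga1 (0.997), Casp12 (0.989), Samsn1 (0.988), Tspan8 (0.988) and Milr1 (0.987). These values describe 8 shared libraries and carry no test.

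Per exon length, the wild-type order of levels in the authors' RPKM was B2m at 1150 ± 126, H2-K1 at 508 ± 83, H2-Aa at 258 ± 68, Cd74 at 199 ± 83, H2-Ab1 at 107 ± 20 and H2-D1 at 91.1 ± 14.8. Tapbp followed at 31.3 ± 12.7, Tap1 at 11.1 ± 3.08, Tap2 at 7.37 ± 3.69 and Ciita at 3.83 ± 1.42 RPKM (SD, n = 5). Among all genes tested, B2m stood at percentile 99.7 and Ciita at percentile 40.4. Neighbours in this order kept it in all 8 livers except for 2 pairs. H2-Aa was above Cd74 in 4 of 8 livers and H2-Ab1 above H2-D1 in 4 of 8, so those neighbours do not differ beyond their spread.

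The wider class I pathway did not pass the test either. Of 17 other class I chain genes, 14 were tested, with a median log2 fold change of -0.24. At an unadjusted edgeR p under 0.05, 1 was higher (Fcgrt, the neonatal Fc receptor that also binds beta-2 microglobulin, at 0.42, adjusted p = 0.294) and 1 lower (H2-M3, which presents formylated peptides, at -0.55, adjusted p = 0.268). H2-Q1 was at -0.83 and H2-T24 at -0.36. Of 13 genes of peptide supply, 1 was higher and 0 lower, with a median of 0.07. Over all genes tested, 10.3% were higher and 5.43% lower at that threshold. Calr, a lectin chaperone of the loading complex, stood at 449, 195, 371, 357 and 232 CPM in wild type and 660, 463 and 612 CPM in het-labelled livers. Its log2 fold change was 0.85 (SE 0.285, adjusted p = 0.268 by edgeR). Canx, the lectin chaperone of new heavy chains, was at 0.34 (SE 0.154, adjusted p = 0.322 by edgeR). In both Calr and Canx every het-labelled liver was above every wild-type liver. These were 2 of the 13 supply genes, and 7.54% of all genes tested had that order. Psmb9, an immunoproteasome subunit, was at 0.33 and Lnpep, a peptide-trimming aminopeptidase, at -0.34, and Nlrc5, the class I counterpart of Ciita, was at -0.09 (edgeR adjusted p = 0.448, 0.39 and 0.834).

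The other 11 class II chain and loading genes had a median log2 fold change of -0.42. At an unadjusted edgeR p under 0.05, 0 were higher and 3 lower, where 10.3% and 5.43% of all genes tested were. None of the 11 passed the adjusted threshold. H2-Ob and H2-Oa, the chains of a modulator of peptide exchange, were at -0.77 and -1.30 (edgeR adjusted p = 0.269 and 0.291), H2-Oa on 3 to 30 counts per library. Lgmn, an endosomal protease, was at -0.42 and H2-Eb2 at -1.07 (edgeR adjusted p = 0.293 and 0.322). H2-Eb1, a further class II beta chain gene, repeated the pattern of H2-Ab1. It stood at 145, 119, 183, 88.7 and 107 CPM in wild type and at 66.9, 166 and 59.9 CPM in het-labelled livers. Of 7 factors that bind MHC promoters (the RFX subunits, the NF-Y subunits and Creb1), 0 were higher and 0 lower, with a median of -0.01. The smallest p values were those of Rfxank at 0.28, Nfyb at 0.26, Creb1 at -0.28 and Nfyc at 0.21 (edgeR adjusted p from 0.354 to 0.45).

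Genes of the interferon pathways had lower medians than the 10 members together (0.06), but not lower than the class II members alone (-0.53). Of 20 interferon gamma signalling genes 19 were tested, with a median log2 fold change of -0.30, 0 higher and 6 lower at an unadjusted edgeR p under 0.05. For this list and the next, the shares over all genes tested were 10.3% higher and 5.43% lower. Ifng itself had 0 to 5 counts per library and was not tested. Irf8, a transcription factor of macrophages and dendritic cells, stood at 28.1, 30.1, 30.7, 27.6 and 30.3 CPM in wild type. It was at 15.5, 22.8 and 15.6 CPM in het-labelled livers, with no overlap, an order seen in 2.32% of all genes tested. The log2 fold change of Irf8 was -0.71 (SE 0.162, adjusted p = 0.259 by edgeR). Gbp2 and Gbp3, interferon-induced GTPases, were at -0.76 and -0.41 and Ifngr1, a receptor chain, at -0.43 (edgeR adjusted p = 0.259, 0.259 and 0.303). Of 16 type I interferon response genes, 0 were higher and 8 lower, with a median of -0.47. The smallest p values were those of Ifi44 at -1.15, Mx1 at -1.06, Ifit2 at -0.76 and Ifit1 at -0.80 (edgeR adjusted p = 0.259 for each). Summed over the 16 genes, the het-labelled livers stood at 385.7, 395.5 and 409.2 CPM and wild type at 402 to 552.4 CPM, so here het-labelled library 2 did not stand apart from libraries 1 and 3.

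Of 6 genes by which presenting cells signal to T cells, 5 were tested, with a median log2 fold change of -0.70. At an unadjusted edgeR p under 0.05, 0 were higher and 3 lower, where 10.3% and 5.43% of all genes tested were. Cd274, which encodes PD-L1, was at -0.70 (SE 0.143), Cd86 at -1.02, Cd40 at -0.75 and Cd80 at -0.46 (edgeR adjusted p = 0.259, 0.259, 0.305 and 0.362). Cd86 stood at 12.1, 24.7, 14, 22.2 and 28.2 CPM in wild type and 9.22, 10.9 and 9.72 CPM in het-labelled livers. Het-labelled library 2 was below every wild-type liver for Cd274, Cd86 and Cd80, which it was not for the 4 class II members. For those 3 genes every het-labelled liver was below every wild-type liver, as in 2.32% of all genes tested. No list above was tested as a set.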

How the data were processed

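Messenger RNA of 8 livers was sequenced with KAPA mRNA HyperPrep libraries, per the labels' protocols. The submitters' processing notes name bcl2fastq (2.18.0.12), the aligner STAR, the counter HTSeq and the mm10 build. The annotation, strand setting and handling of multiply matching reads are not stated there. The authors deposited raw counts per gene and, in a second table, RPKM values and exon lengths. Unused sample columns numbered 0. Total counts ran from 17508221 to 24916239.

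The genotype label set the groups. Library numbers follow accession order and pair no livers. Genes were kept by filterByExpr (minimum count 10), scaled by TMM and tested in edgeR 4.0.16 (robust quasi-likelihood, two-sided, Benjamini-Hochberg over 14438 genes, threshold 0.05) under R 4.3.3. Single values were tested by exact permutation over 56 assignments. The procedure was checked on counts simulated for the same comparison over 14438 genes with 200 changed: it called 2, 13, 34 and 40 of 50 genes at 1.5-, 2-, 3- and 4-fold, and 1 unchanged gene. The alternatives tried were DESeq2 1.42.0, RLE scaling, library size alone, limma-voom and limma on log2(RPKM + 0.1 or 1) (limma 3.58.1), other filters, no robust estimation, 1 surrogate variable (sva 3.50.0), each library left out, and the wild-type sets by Rpph1 share. The RPKM fits are on the log2(value + pseudocount) scale, which understates changes of low genes. Replicates differed by more than counting noise in every pair.

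The 10 members, the 20 gene lists (173 symbols, 1 not in the table) and the tests were chosen with earlier results of these data known. Named from each list outside the markers were up to 4 genes with the smallest edgeR p, and for H2-K1 and H2-Aa the 5 genes of highest r; Nlrc5, H2-Eb1, Ifng and the single marker genes were named after their values were seen. Overlaps and shared windows were computed from the supplied mm10 annotation and transcripts, and promoter windows are RefSeq's on GRCm38.p6.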

Additional observations from a re-analysis of the deposited data

How the results depend on the processing

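Members were called at an adjusted p of 0.05 under 1 alternative only, the comparison with wild-type libraries 2, 4 and 5. Counts of genes called (0 here) were 176 by DESeq2, 9 with 1 surrogate variable, 21 against wild-type libraries 1 and 3 and 2632 against libraries 2, 4 and 5, which called 2 members. Members at an unadjusted p under 0.05 (1 here) numbered 0 by library size alone, 2 by DESeq2, 2 by limma-voom and 3 with 1 surrogate variable. They numbered 2 against wild-type libraries 1 and 3, 4 against libraries 2, 4 and 5, and 0 to 4 with 1 library left out. Among all genes, those higher and lower at that threshold were 1333 and 1373 by DESeq2, and 1538 and 830 of 14438 by limma-voom. With 1 surrogate variable they were 2595 and 1557 of 14438. Against wild-type libraries 1 and 3 they were 2449 and 2181 of 14645, and against libraries 2, 4 and 5 they were 2622 and 2606 of 13922. By both limma fits on RPKM the 1 member was H2-Aa, not B2m. Members under that threshold numbered 0 without wild-type library 2, het-labelled library 1 or het-labelled library 3, and 4 without het-labelled library 2. In that last fit 1969 of 14746 genes were higher and 1633 lower at the same threshold. The median of the members was -0.35 against wild-type libraries 1 and 3.

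Signs turned for Tap1 (-0.041) and Tapbp (-0.11) by library size alone, where the median of all genes moved to -0.18 and the split of genes with an unadjusted p below 0.05 was 427 up against 1198 down, in place of 1487 against 784. It was 1148 against 973 with RLE and 1333 against 1373 by DESeq2. Against wild-type libraries 1 and 3, H2-D1 was at 0.19, Tap1 at -0.21, Tap2 at -0.27 and Tapbp at -0.42; against libraries 2, 4 and 5, H2-K1 was at -0.015 and Cd74 at 0.12. With 1 library left out H2-D1 ran from -0.15 to 0.036, Tapbp from -0.0014 to 0.27, H2-K1 from 0.06 to 0.28, Tap1 from 0.05 to 0.31 and Tap2 from 0.20 to 0.57. The causes were not tested. No paired analysis was possible because the numbers follow accession order. With 3 het-labelled livers the exact test cannot go below 0.0357, and H2-Oa, with 3 to 30 counts per library, is limited by depth.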
